A study of Homo sapiens with 18 samples.

Results

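The genes described here are LCN2 (lipocalin 2), the acute phase proteins SAA1, SAA2, CRP, HP, ORM1, ORM2, HAMP and LBP, and SOCS3, a feedback inhibitor of cytokine signalling. They are 10 of the 36684 gene symbols in a table of RNA-seq read counts from Hep3B, a human hepatoma cell line. All were listed by name with results of these data known, and which values chose each gene is not recorded. LCN2 is treated as chosen by its measured level in Model against Con. If other groups were also looked at, its tests in those groups are not free of that choice. The 18 libraries fall into 6 groups of 3. Con is the control, and Model cells were induced with free fatty acids (FFA). FUCO-0.5, FUCO-1 and FUCO-2 cells were FFA-induced and received fucoxanthin, a carotenoid of brown algae, at 0.5, 1 and 2 μM. RES cells were FFA-induced and received Resmetirom, an agonist of thyroid hormone receptor β. Every group that received a compound was therefore also FFA-induced. The FFA concentration, the treatment times and the dose of Resmetirom are not given for these libraries in the sources used here. All libraries come from 1 tumour-derived line in culture, and the agents were compared with each other at the single dose of Resmetirom.

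The acute phase response is the change in the plasma proteins that hepatocytes secrete when inflammatory cytokines reach the liver. Interleukin-6 (IL-6) signals through JAK kinases to the transcription factor STAT3, while IL-1 and tumour necrosis factor act through NF-κB, and C/EBP factors act with both at the promoters of acute phase genes. Positive acute phase proteins rise in this response, negative ones such as albumin and transthyretin fall, and STAT3 induces SOCS3, which then restrains the pathway.

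LCN2, a secreted protein that binds bacterial siderophores, lies on chromosome 9 (GRCh38.p14, chr9:128149453-128153453, plus strand). Its promoter is shown because LCN2 is the gene whose level changed with both agents. The RefSeq promoter table of GRCh38.p14 held 5 of the 10 genes (LCN2, CRP, ORM1, HAMP and SOCS3). The 185 bases upstream of the LCN2 start, chr9:128149268-128149452 on the plus strand, are printed with 2 motif matches in capitals. The first is a match to the NF-κB consensus on the minus strand that starts 175 bases upstream, and the second a match to the C/EBP motif TTGCNNAA that starts 143 bases upstream on the plus strand.
LCN2 promoter: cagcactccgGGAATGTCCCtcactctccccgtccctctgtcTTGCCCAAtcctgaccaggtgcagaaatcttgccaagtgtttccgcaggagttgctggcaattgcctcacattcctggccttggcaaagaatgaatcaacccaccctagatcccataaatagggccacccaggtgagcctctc
Both strands of the 250 bases upstream were searched, and the 2 matches do not overlap. Of 27305 promoters of the same length, 5.05% held the NF-κB consensus, 9.13% the C/EBP motif and 6.78% the STAT motif TTCNNNGAA. The LCN2 window held no STAT match. HAMP, which encodes the iron hormone hepcidin, held a STAT match 93 bases upstream of its start. CRP, ORM1 and SOCS3 held none of the 3 motifs in this window. A match describes letters and is not evidence of a bound site.

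ORM1 and ORM2, the neighbouring genes of α1-acid glycoprotein, a drug-binding plasma protein, lie on the plus strand of chromosome 9 at chr9:114323098-114326479 and chr9:114329869-114333251. Their coding sequences in GENCODE v44 are 603 bases each, differ at 31 bases (94.9% identity) and share an identical run of 206 bases. Reads of 1 gene can therefore match the other, and how reads with several matches were counted is not given in the sources used here. Coding bases 314 to 403, which hold 18 of the differing bases, are printed because they are the stretch that best tells the genes apart, with each differing base in capitals.
ORM1: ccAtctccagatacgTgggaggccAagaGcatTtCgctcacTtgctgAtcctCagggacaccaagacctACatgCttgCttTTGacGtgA
ORM2: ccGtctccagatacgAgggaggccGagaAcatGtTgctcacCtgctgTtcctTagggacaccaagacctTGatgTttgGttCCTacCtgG
SAA1 and SAA2 share 97.0% of 366 coding bases. HP, which encodes the haemoglobin scavenger haptoglobin, shares 81.5% of aligned coding positions with HPR, the haptoglobin-related gene. Values of these genes carry the same uncertainty.

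Library totals ran from 16916688 to 23083498 counts and overlapped between the groups. All 10 hepatoma markers checked (such as AFP, ALB and APOB) were above 1 CPM (counts scaled to the library total) in every group. Their summed level ran from 54330 to 55510 CPM in Model, from 37520 to 42670 CPM in FUCO-2 and from 21170 to 21600 CPM in RES, against 65380 to 70210 CPM in Con. Markers of immune, fibroblast and endothelial cells summed to between 1.31 and 3.61 CPM in all libraries, with CD163 and S100A8 at 0. In bulk RNA, fewer cells with a transcript and less transcript per cell cannot be told apart.

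The members differed widely in level. Per kilobase of exon and averaged over 18 libraries, ORM1 stood at 148 and ORM2 at 98.2 CPM per kb, above LCN2 at 4.74 and SOCS3 at 0.766 CPM per kb. HP at 0.0710, CRP at 0.0705, LBP at 0.0221, HAMP at 0.0168, SAA1 at 0.0059 and SAA2 at 0.0028 CPM per kb were near the limit of detection. The lengths join the exons of all annotated transcripts of a gene, 5.49 kb for HP and 2.86 kb for HAMP, and the order depends on them. Without scaling to length, HP stood at 0.390, CRP at 0.142, HAMP at 0.0481 and LBP at 0.0404 CPM. Only LCN2, ORM1, ORM2, HP and SOCS3 passed the filter on low counts, among 14557 genes tested. The tests below are edgeR quasi-likelihood fits of all 18 libraries with Benjamini-Hochberg adjustment over those genes, and a gene was called when its adjusted p was under 0.05. Fold changes are log2 values with their standard errors, and levels are CPM scaled with TMM factors, with group means ± SD (n = 3). Where groups are said not to overlap, or to lie above or below each other, the share of all genes that do so was not counted.

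LCN2 was counted 1, 7 and 3 times in Con and 125, 73 and 123 times in Model. Its levels were 0.0578, 0.418 and 0.162 CPM in Con, and 6.85, 4.06 and 6.66 CPM in Model. The groups did not overlap, and the second Model library was the lowest of the FFA-induced libraries. The fitted log2 difference was 4.76 ± 0.44 (SE, 95% interval 3.85 to 5.68), which rests on 11 reads in Con. This contrast is taken to have chosen the gene, so no test is given. Over all genes, 8.43% were called higher and 9.12% lower in Model than in Con.

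**Figure D1:**
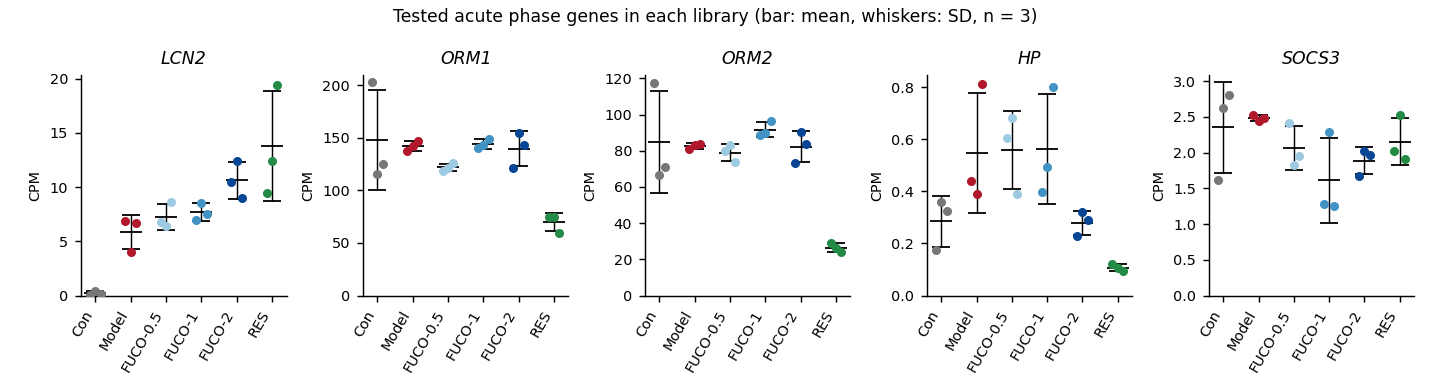
Level of the 5 tested genes in each of the 18 libraries in CPM on a linear axis, with the mean (bar) and SD (whiskers, n = 3) of each group and a separate scale for each gene. LCN2 lay under 0.42 CPM in Con and reached 19.4 CPM in RES, while ORM1, ORM2 and HP were lowest in RES.

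LCN2 was called higher than Model in FUCO-2 and RES and was not called lower in any group. With fucoxanthin, it stood at 6.75, 6.38 and 8.60 CPM in FUCO-0.5, at 6.98, 8.58 and 7.54 CPM in FUCO-1, and at 10.5, 12.4 and 9.02 CPM in FUCO-2. Every FUCO-1 and FUCO-2 library was above the Model libraries, whereas FUCO-0.5 overlapped them. LCN2 rose in FUCO-2 to 182% of its Model level, with a log2 fold change of 0.86 ± 0.22 (95% interval 0.40 to 1.32, adjusted p = 0.00802 by edgeR). The differences of 0.30 ± 0.23 in FUCO-0.5 (95% interval −0.18 to 0.78, adjusted p = 0.699) and of 0.39 ± 0.23 in FUCO-1 (95% interval −0.09 to 0.87, adjusted p = 0.425) did not pass the edgeR test. Without the second Model library, the FUCO-2 difference was 0.66 and no longer called, with an adjusted p of 0.0615 by edgeR. These comparisons share the Model libraries with the contrast taken to have chosen LCN2, and may themselves have been seen when it was chosen.

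In RES, LCN2 stood at 9.49, 12.4 and 19.4 CPM, from 235, 231 and 416 reads. All 3 libraries were above Model, and the third was well above the others. LCN2 rose to 234% of its Model level (log2 fold change 1.23 ± 0.22, 95% interval 0.78 to 1.68, adjusted p = 5.15e-05 by edgeR). By group mean, the order was Con at 0.213 ± 0.185, Model at 5.86 ± 1.56, FUCO-0.5 at 7.24 ± 1.19, FUCO-1 at 7.70 ± 0.809, FUCO-2 at 10.6 ± 1.69 and RES at 13.8 ± 5.09 CPM. Neighbours in this order above Con were not called as different. FUCO-1 differed from FUCO-0.5 by 0.09 (adjusted p = 0.903 by edgeR), FUCO-2 from FUCO-1 by 0.47 ± 0.22 (95% interval 0.02 to 0.92, adjusted p = 0.218) and RES from FUCO-2 by 0.37 ± 0.20 (95% interval −0.05 to 0.79, adjusted p = 0.142). FUCO-2 and FUCO-1 did not overlap. The last 3 comparisons contrast neither Model nor Con, but those libraries entered the filter, the scaling and the shared estimate of the spread. Without the third RES library the difference of RES from FUCO-2 was 0.03, and without the first it was 0.59 with an adjusted p of 0.021 by edgeR.

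ORM1 and ORM2 differed little between Model and Con and were lower in RES. ORM1 stood at 203, 115 and 125 CPM in Con and at 137, 142 and 147 CPM in Model, and ORM2 at 117, 66.8 and 70.9 CPM in Con and at 80.9, 83.3 and 83.6 CPM in Model. The first Con library was above all others for both genes, and Con spanned the Model values. The log2 differences of Model from Con were −0.06 ± 0.13 for ORM1 and −0.04 ± 0.13 for ORM2, given here without a test.

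In RES, ORM1 stood at 74.5, 74.6 and 59.7 CPM and ORM2 at 28.8, 26.5 and 23.98 CPM. All 3 libraries lay below the lowest library of any other group for both genes. Against Model, ORM1 fell to 49.0% (log2 fold change −1.03 ± 0.14, adjusted p = 1.03e-06 by edgeR) and ORM2 to 32.1% (−1.64 ± 0.14, adjusted p = 7.12e-10). Against FUCO-2 the falls were nearly equal in size, at −1.004 ± 0.14 for ORM1 (adjusted p = 1.68e-06 by edgeR) and −1.64 ± 0.14 for ORM2 (adjusted p = 9.99e-10). The summed hepatoma markers were also lowest in RES. That sum is mostly ALB, at 33912 CPM in Model and 7528 CPM in RES. Of the 10 markers 7 fell and 0 rose in RES against Model, with a median log2 difference of −0.56. The other 3 were not called, with mean levels in Model and RES of 1091 and 1010 CPM for KRT8, 514 and 483 CPM for KRT18, and 4775 and 5492 CPM for APOA2. The part of these markers in the falls of the ORM genes was not tested.

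Fucoxanthin left both ORM genes uncalled at every dose. ORM1 stood at 119, 121 and 126 CPM in FUCO-0.5, below each Model library, with a log2 difference of −0.22 (adjusted p = 0.575 by edgeR). ORM2 stood at 88.8, 89.9 and 96.4 CPM in FUCO-1, above each Model library, with a log2 difference of 0.15 (adjusted p = 0.621 by edgeR). In FUCO-2 the log2 differences from Model were −0.02 for ORM1 and 0.00 in size for ORM2.

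The balance of the paralogs within a library also differed. The ratio of ORM2 to ORM1 counts, chosen after its values were seen, was 0.575 ± 0.00732 in Con, 0.582 ± 0.0106 in Model, 0.649 ± 0.0534 in FUCO-0.5, 0.637 ± 0.00908 in FUCO-1 and 0.591 ± 0.00881 in FUCO-2. In RES it was 0.387, 0.356 and 0.402, below the range of 0.566 to 0.684 in the other 15 libraries. The log2 ratio in RES was lower than in Model by a difference of −0.61, and an exact two-sided permutation test gave p = 0.1, the smallest that 3 against 3 libraries allow (adjusted p = 0.2 over the 4 groups compared with Model). For FUCO-0.5, FUCO-1 and FUCO-2 the differences of the log2 ratio were 0.15 (exact p = 0.2), 0.13 (exact p = 0.1) and 0.02 (exact p = 0.5), with adjusted p of 0.267, 0.2 and 0.5.

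**Figure D2:**
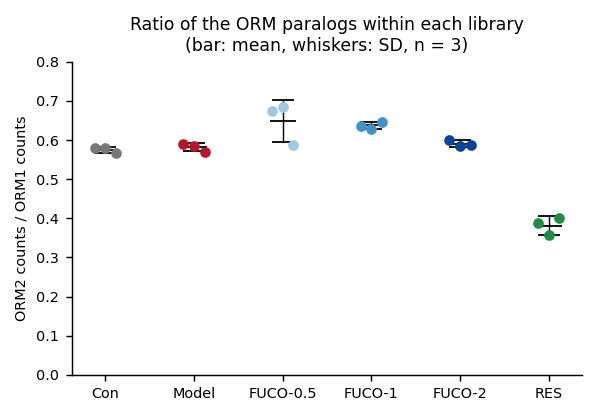
Ratio of ORM2 to ORM1 read counts in each library on a linear axis from 0, with the mean (bar) and SD (whiskers, n = 3) of each group. The 3 RES libraries lie between 0.356 and 0.402, and the other 15 between 0.566 and 0.684.

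HP was detected at a few reads per library and was lowest in RES. It was counted 3, 6 and 6 times in Con, 8, 7 and 15 in Model, 11, 13 and 7 in FUCO-0.5, 8, 9 and 14 in FUCO-1, 4, 6 and 5 in FUCO-2, and 3, 2 and 2 in RES. Model was above Con in every library (log2 difference 0.93 ± 0.44, 95% interval 0.02 to 1.83, given without a test), and FUCO-2 and RES were below every Model library. HP fell in RES (log2 fold change −2.27 ± 0.51, 95% interval −3.32 to −1.23, adjusted p = 0.000649 by edgeR). It passed the filter on low counts only through libraries of Model, FUCO-0.5 and FUCO-1, the groups where it was high. The tests of HP in FUCO-2 and RES are therefore not free of that filter. In FUCO-2 the difference from Model was −0.95 ± 0.44 (adjusted p = 0.129), and RES against FUCO-2 gave −1.32 ± 0.59 (adjusted p = 0.0668). In FUCO-0.5 and FUCO-1 it was 0.03 and 0.02 (adjusted p = 0.992 in both). HPR, with 1 to 28 reads per library, had mean levels of 0.548 CPM in Model and 0.0918 CPM in RES. It was named after its values were seen, so no test is given. Reads shared by the 2 genes could enter both values. HP and HPR were low along with the hepatoma markers in RES, and the part of those markers was not tested.

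SOCS3, on the minus strand of chromosome 17 (chr17:78356778-78360925), was not called in any tested comparison. Its levels were 1.62, 2.63 and 2.81 CPM in Con, 2.52, 2.45 and 2.49 in Model, 2.41, 1.83 and 1.95 in FUCO-0.5, 1.29, 2.29 and 1.26 in FUCO-1, 1.67, 2.02 and 1.97 in FUCO-2, and 2.02, 2.53 and 1.91 in RES. Con spanned the Model values. Every library of the 3 fucoxanthin groups was below the Model libraries, which lay close together (2.49 ± 0.0377 CPM). These 3 comparisons share the same Model libraries, and in none of them was SOCS3 called. The log2 differences from Model were −0.27 in FUCO-0.5 (adjusted p = 0.739 by edgeR) and −0.63 ± 0.24 in FUCO-1 (95% interval −1.12 to −0.13, unadjusted p = 0.0151, adjusted p = 0.17). In FUCO-2 the difference was −0.40 ± 0.24 (adjusted p = 0.25 by edgeR). In RES the difference was −0.22 ± 0.22 (95% interval −0.68 to 0.25, adjusted p = 0.445). Without the second FUCO-1 library, the FUCO-1 difference was −0.96 and called (adjusted p = 0.0426 by edgeR).

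**Figure D3:**
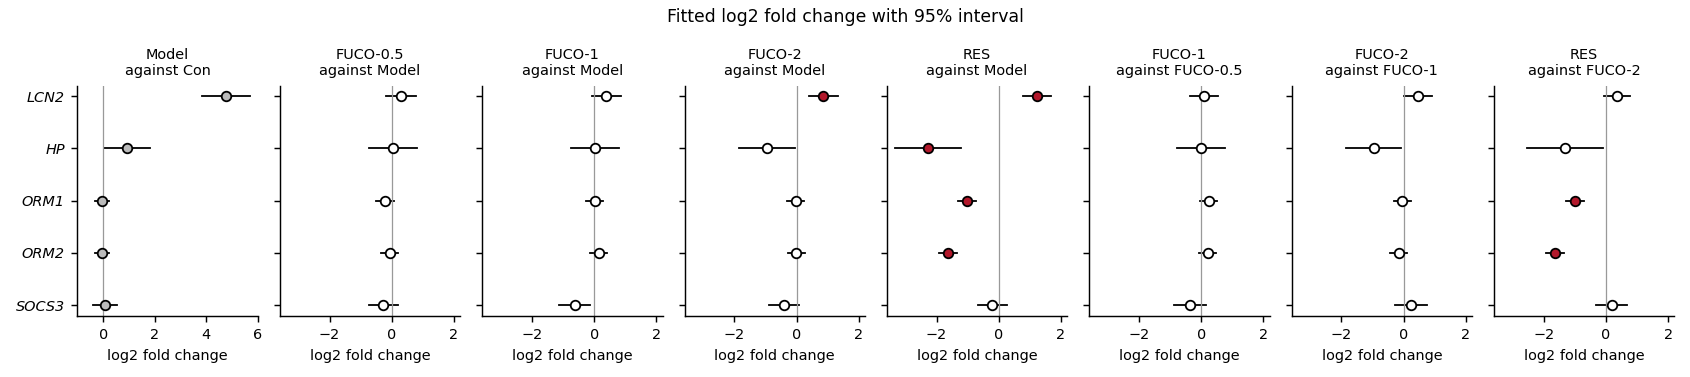
Fitted log2 fold change of the 5 tested genes in 8 comparisons, with 95% intervals. Red points had an adjusted p under 0.05, open points did not, and grey points (Model against Con, on its own wider axis) carry no test. Calls appear for LCN2 in FUCO-2 and RES against Model, and for ORM1 and ORM2 in both comparisons of RES, with HP in RES against Model.

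The other 5 members were below the filter, and of these CRP had the most reads. CRP, a pentraxin that binds phosphocholine and the classical clinical marker of inflammation, was counted 9, 5 and 4 times in Con and 4, 5 and 4 in Model. It was counted 2, 4 and 0 times in FUCO-0.5, 3, 2 and 2 in FUCO-1, 0, 0 and 2 in FUCO-2, and in no RES library. In reads, FUCO-1, FUCO-2 and RES lay below every Model library. In CPM FUCO-0.5 did too, narrowly, with a highest value of 0.209 CPM against a lowest of 0.217 CPM in Model. With 0 reads, the 3 RES libraries were given a floor of 0.0463 CPM (3 counts over the group). The pooled Model level of 0.238 CPM, from 13 reads, was 5.13 times this floor. That ratio leaves out the counting error of Model, with a 95% range of 0.127 to 0.407 CPM, and is not a lower bound. An exact two-sided permutation test gave p = 0.1 for RES and for FUCO-2 against Model, the smallest that 3 against 3 allow (adjusted p = 0.1 over the 2 tests). In the edgeR fit without the filter, CRP had an adjusted p of 0.000951 in RES and of 0.0988 in FUCO-2, both against Model, and DESeq2 gave 0.00313 in RES.

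The remaining 4 genes had too few reads to show a difference at this depth. SAA1 and SAA2, the major inducible serum amyloid A proteins, had 2 reads each in all 18 libraries and were at 0 in 16 of them. HAMP was counted 2 times in each FUCO-0.5 library and between 0 and 2 times in every other. LBP, the plasma protein that carries lipopolysaccharide to CD14, was counted between 0 and 3 times per library and was at 0 in all RES libraries. With 3 LBP reads in Model against 0 in RES, both at the floor of 3 counts, no fold is given. These floors cover counting error only.

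**Figure D4:**
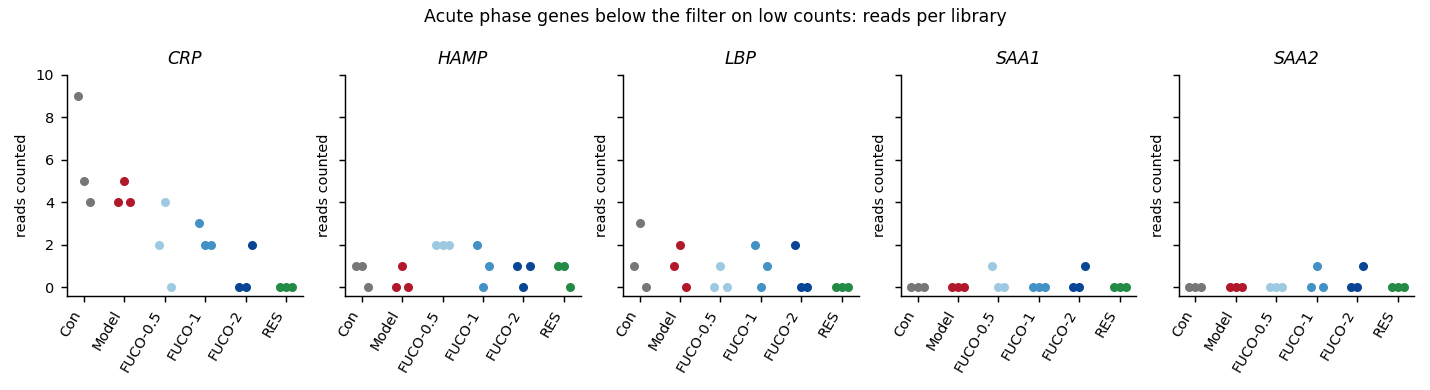
Reads counted per library for CRP, HAMP, LBP, SAA1 and SAA2, on 1 linear axis from 0, with 1 point per library. CRP runs from 4 to 9 reads in Con, 4 or 5 in Model and 0 in RES, and no other gene exceeds 3 reads.

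The counts of members called are given beside the share of all genes called. In FUCO-0.5 against Model edgeR called 0 of the 5 tested members, 0 had an unadjusted p under 0.05 and DESeq2 called 0 of 4, while 0.289% of all genes were called higher and 1.16% lower. In FUCO-1 against Model edgeR called 0, with 1 unadjusted p under 0.05 and 0 of 4 by DESeq2, against 0.893% of all genes higher and 2.32% lower. In FUCO-2 against Model 1 member was called higher and 0 lower by edgeR, and DESeq2 likewise, where 10.8% of all genes were higher and 9.71% lower and 2 members had an unadjusted p under 0.05. In RES against Model 1 was higher and 3 lower, on a background of 24.4% and 25.1%, and DESeq2 called 1 higher and 4 lower, with CRP as the added gene.

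Comparisons among the treated groups gave 2 calls. In FUCO-1 against FUCO-0.5 edgeR called 0 members, with 0 unadjusted p under 0.05 and 0 of 3 by DESeq2, and the background was 0% higher and 0.00687% lower. In FUCO-2 against FUCO-1 edgeR called 0 members, with 2 unadjusted p under 0.05 and 0 of 4 by DESeq2, where 4.07% of genes were higher and 2.23% lower. In RES against FUCO-2 edgeR and DESeq2 each called 0 higher and 2 lower, with 3 members at an unadjusted p under 0.05 by edgeR, and 22.5% of all genes were higher and 26% lower. The median log2 difference of the 5 tested members was −1.03 in RES against Model and −1.004 in RES against FUCO-2, and that of all genes was 0.00 and −0.01.

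The other genes of the response are described by lists of named genes. Counts called in a list stand beside the share of all genes called in the same comparison, given above, and no list was tested as a set. Of 22 other positive acute phase proteins, 17 were tested. In Model against Con, 1 was higher, the complement component C3 (log2 fold change 0.90), and 10 were lower, among them ITIH3 (−1.57) and CP, the copper protein ceruloplasmin (−0.87). The list's median was −0.38 against 0.00 for all genes. In FUCO-1 3 fell against Model, the fibrinogen chains FGB (−0.77), FGG (−0.59) and FGA (−0.47). In FUCO-2 8 fell, including FGB (−1.34), FGG (−1.01) and the haem carrier HPX (−0.99), with a median of −0.31. In RES 12 fell, including HPX (−2.66) and FGL1 (−1.99), and 5 rose, among them FGA, by 1.70 from 209 to 676 CPM (adjusted p = 6.74e-12 by edgeR). FGA was thus lower than Model in FUCO-1 and higher in RES, and against FUCO-2 it was higher in RES by 2.57.

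Negative acute phase proteins were called lower in FUCO-2 and RES. Of 10, 9 were tested, and in Model against Con 1 was higher and 3 lower, including AHSG (−0.78) and the iron carrier TF (−0.72). Against Model, edgeR and DESeq2 each called 0 in FUCO-0.5 and FUCO-1, where 3 and 2 had an unadjusted p under 0.05 by edgeR. In FUCO-2 0 rose and 6 fell against Model, including TTR, or transthyretin (−0.88), SERPINA6 (−0.62) and TF (−0.60). In RES 0 rose and 9 fell, led by SERPINA7, the thyroxine-binding globulin (−4.26), the apolipoprotein APOA1 (−2.56) and TTR (−2.46), and the list's median was −2.15. ALB and TTR of this list, and SERPINA1 of the other positive list, are also among the hepatoma markers. The counts of both lists are therefore not independent of the marker sums given above.

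**Figure D5:**
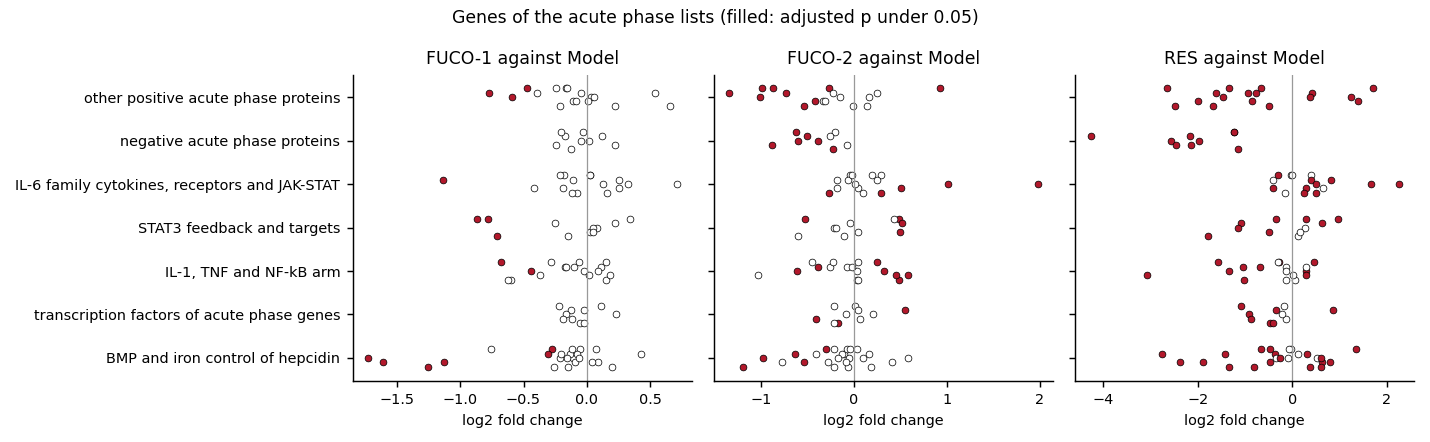
Fitted log2 fold change of each tested gene of 7 lists in FUCO-1, FUCO-2 and RES against Model, 1 point per gene, filled where the adjusted p was under 0.05 and with a separate axis for each comparison. The 9 negative acute phase proteins are all lower in RES, while 4 genes of the IL-6 family list are higher in FUCO-2 and 8 in RES.

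Transcripts of the cytokines differed in level. IL6, TNF, OSM and IL1B had at most 2, 1, 2 and 5 reads in any library, whereas IL1A had 4 to 37 reads, IL11 had 23 to 61 and LIF had 78 to 593. IL1A, singled out after its values were seen, had mean levels of 1.02 CPM in Model and 0.331 CPM in RES, and no test is given. Of 18 genes of the IL-6 family and JAK-STAT list, 16 were tested, and 4 were higher and 2 lower in Model than in Con. LIF, an IL-6 family cytokine, was higher in Model by 0.87, fell in FUCO-0.5 (−1.12) and FUCO-1 (−1.13), and rose in RES (0.81), with mean levels of 6.83 CPM in Con, 12.5 in Model, 5.72 in FUCO-0.5, 5.70 in FUCO-1, 14.8 in FUCO-2 and 21.9 in RES. FUCO-2 was above FUCO-1 by 1.38 for LIF (adjusted p = 0.000317 by edgeR). IL6R, the IL-6 receptor, rose in FUCO-2 (1.01) and in RES (2.25, from 3.59 to 17.1 CPM). In all, 4 genes of this list rose and 1 fell in FUCO-2, and 8 rose and 2 fell in RES, against Model.

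STAT3 targets other than SOCS3 were called in both directions. All 11 were tested, and 2 were higher and 1 lower in Model than in Con, including SOCS1 (0.89). MCL1, a survival factor, fell in FUCO-0.5 (−0.68), FUCO-1 (−0.78) and FUCO-2 (−0.52), and JUNB fell in FUCO-0.5 (−0.83) and FUCO-1 (−0.71). Against Model the list had 0 higher and 2 lower in FUCO-0.5, 0 and 3 in FUCO-1, 3 and 1 in FUCO-2, and 3 and 5 in RES. In RES the falls included SOCS1 (−1.78) and CISH (−1.15), both of the SOCS family, whereas SOCS3 was not called. SOCS2, of the same family, went the other way, with a mean of 4.38 CPM in Model and 8.48 CPM in RES. From FUCO-1 to FUCO-2, 4 rose and 0 fell, among them SOCS2 (1.30) and PIM1 (0.77).

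In the IL-1, TNF and NF-κB list, 17 of 19 genes were tested. In Model against Con 5 were higher and 2 lower, and the 3 largest changes in genes over 1 CPM were the NF-κB feedback genes TNFAIP3 (1.22) and NFKBIA (0.99), and NFKBIZ (0.62), a cofactor of NF-κB at the LCN2 promoter. NFKBIZ fell in FUCO-1 (−0.67) and, by edgeR, in FUCO-0.5 (−0.62, adjusted p = 0.0215), where DESeq2 gave an adjusted p of 0.0506 and called 0 of 16 genes of this list. Against Model, 1 gene fell in FUCO-0.5 and 2 in FUCO-1 with 0 higher, 5 rose and 2 fell in FUCO-2, and 3 rose and 7 fell in RES. In FUCO-2 the called genes included NFKB2 (0.58) and the IL-1 receptor subunit IL1RAP (−0.61), and in RES they included IL1RAP (−1.34), IL1R1 (−1.04) and TNFAIP3 (−1.03). LCN2 was higher in RES than in Model, where 3 genes of this list rose and 7, TNFAIP3 among them, fell. The part of this list in the level of LCN2 was not tested.

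Of 10 transcription factors of acute phase genes, all were tested. CEBPD was higher in Model than in Con (1.44, from 33.7 to 91.2 CPM, adjusted p = 1.22e-06 by edgeR), and CEBPA (−0.55) and FOXA3 (−0.35) were among 3 lower. In FUCO-2 1 rose, CEBPB (0.54), and 2 fell, among them FOXA1 (−0.17), and edgeR and DESeq2 called 0 in FUCO-0.5 and FUCO-1, with 2 unadjusted p under 0.05 by edgeR in each. In RES 1 rose, CEBPB (0.86), and 6 fell, including CEBPA (−1.08) and CEBPD (−0.92).

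The 24 genes of the BMP and iron pathway that controls hepcidin were all tested, although HAMP itself had at most 2 reads in a library. In Model against Con 3 were higher, among them BMP4 (0.84), and 4 lower. BMP4 fell in FUCO-0.5 (−0.93), FUCO-1 (−1.25) and FUCO-2 (−1.20), and ID1, a direct BMP target, fell in FUCO-0.5 (−1.18), FUCO-1 (−1.73) and FUCO-2 (−0.98). Against Model 3, 6 and 5 genes fell in FUCO-0.5, FUCO-1 and FUCO-2, with 0 higher in each. In RES 7 rose and 11 fell, led by TFR2 (−2.75), an iron sensor, TMPRSS6 (−2.38), the protease that restrains hepcidin, and BMP2 (−1.88).

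For receptors and partners of the members, reads were few. SLC22A17, a proposed LCN2 receptor, was the only 1 of 3 genes to pass the filter, at 0.0361 CPM in Con, 0.401 in Model, 0.182 to 0.207 in the fucoxanthin groups and 0.861 in RES, from at most 22 reads in a library. It was singled out after its values were seen and its highest group is RES, so no test is given, and DESeq2 called 0 genes of this list in RES against Model. LRP2, an endocytic receptor, and MMP9, which forms a complex with LCN2, were below the filter. Of 4 lipopolysaccharide sensing genes 2 were tested, and CD14 rose in RES by 1.71 from 3.58 to 11.7 CPM, while TLR4 had at most 2 reads in a library.

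The lists were also compared between agents and doses. In RES against FUCO-2, 22.5% of all genes were higher and 26% lower. Of 17 tested other positive acute phase proteins 5 rose and 10 fell, and of 9 negative ones 0 rose and 9 fell. In the IL-1, TNF and NF-κB list 1 of 17 rose and 9 fell. The IL-6 family list had 6 higher and 4 lower of 16, and the STAT3 list 3 and 6 of 11. The transcription factors had 1 and 7 of 10, and the BMP and iron list 8 and 8 of 24. In FUCO-2 against FUCO-1, where 4.07% of all genes were higher and 2.23% lower, 6 other positive acute phase proteins and 4 negative ones fell. In FUCO-1 against FUCO-0.5 edgeR called 0 of the 115 tested genes of any list, marker lists included, with 18 unadjusted p under 0.05, and DESeq2 called 1 of 95.

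The genes whose pattern was most like that of LCN2 were sought among 13077 tested genes with a mean of at least 1 CPM, by Pearson r over the 6 group means of log2 CPM. They were GPX2 (r = 0.995), HLA-E (0.993), SLC22A31 (0.989), CAMK1 (0.987) and SMURF1 (0.986). GPX2, an intestinal-type glutathione peroxidase, stood at 0.920 CPM in Con, 5.29 in Model, 6.18 in FUCO-0.5, 6.06 in FUCO-1, 7.07 in FUCO-2 and 6.90 in RES. Over the 18 libraries its Spearman rho with LCN2 was 0.74. The r rests on 6 points, and LCN2 and all 5 genes were lowest in Con. For SOCS3 the genes were TAOK1 (0.985), CLK1 (0.984), REV1 (0.980), FBXO11 (0.975) and MED17 (0.970). Ranked by Spearman rho over the 18 libraries instead, 0 of the 5 LCN2 genes and 1 of the 5 SOCS3 genes stayed among the 5 closest. Points share library normalization, and no test is given.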

How the data were processed

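RNA was measured in 18 Hep3B libraries, grouped by their titles. The authors selected poly(A) RNA, trimmed paired reads with fastp, aligned them with STAR to GRCh38.p14 with GENCODE annotation and deposited raw counts per gene from featureCounts. Strand and multimapping settings are not given in the sources used here. Totals per library ran from 17968042 to 19631852 in Con, 18317088 to 18994381 in Model, 17740625 to 19425500 in FUCO-0.5, 17634513 to 20203213 in FUCO-1, 16916688 to 18631479 in FUCO-2 and 17346520 to 23083498 in RES. Of 36684 symbols, 24090 had a count.

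From the counts, edgeR 4.0.16 in R 4.3.3 fitted all 18 libraries with 1 term per group (filterByExpr with minimum count 10 and total 15, TMM, prior count 0.125, quasi-likelihood test), which left 14557 genes. DESeq2 1.42.0, the tool of the study's methods, was an alternative, with other filters, scalings, a fold threshold, a replicate block and each library left out in turn. Adjusted p-values are Benjamini-Hochberg. Per-kilobase levels used the joined exon length of all GENCODE v44 transcripts of a gene, and positions and promoters are RefSeq's. The members and lists were chosen with earlier results of these data known. Of each list, the 3 called genes with the largest change and a mean of at least 1 CPM were named in each comparison, of which the text gives some, and a few list results are not reported here. HPR, FGA in RES against FUCO-2, CEBPB in RES, SOCS2 in RES, SLC22A17, IL1A and the ORM ratio were named after their values were seen. Replicates are biological by the study's methods. Intervals of fold changes include the spread between libraries, while the floors of 3 counts cover counting error only, since reads carry no molecular identifiers.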

Additional observations from a re-analysis of the deposited data

How the results depend on the processing

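Across 26 alternative fits, 18 of which left out 1 library, the calls of LCN2, HP, ORM1 and ORM2 in RES against Model and of ORM1 and ORM2 in RES against FUCO-2 kept their direction and their side of the threshold wherever the gene was fitted. The log2 fold changes in RES against Model, with 1 library left out, ran from 0.89 to 1.45 for LCN2 (highest adjusted p 0.000928), from −2.46 to −1.88 for HP (0.00982), from −1.08 to −0.93 for ORM1 and from −1.71 to −1.57 for ORM2. The count of members higher than Model in FUCO-2 went from 1 to 0 when at least 10 counts were required in every library, which removes LCN2, and when a log2 fold change over 1 was required, and it ran from 0 to 1 with 1 library left out (0 without the second Model library). The count of members higher in RES than in Model went from 1 to 0 when 10 counts were required in every library. Without a filter on low counts, 1 member (LCN2) was higher in FUCO-2 than in FUCO-1, and 1 (LCN2) in RES than in FUCO-2, at folds of 0.47 and 0.36 that hardly moved, and with adjusted p of 0.0205 and 0.0223; the cause was not tested. With 1 library left out, the count lower in FUCO-1 than in Model ran from 0 to 1 (SOCS3, without the second FUCO-1 library), and that higher in RES than in FUCO-2 from 0 to 1 (LCN2, without the first RES library).

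The sign changed only for differences near 0 that were not called. ORM2 in FUCO-2 against Model was 0.0044 without a filter and 0.0021 with 10 counts in every library, and ran from −0.076 to 0.0767 with 1 library left out. Left out likewise, HP ran from −0.16 to 0.43 in FUCO-0.5 and from −0.31 to 0.42 in FUCO-1 against Model and from −0.34 to 0.20 in FUCO-1 against FUCO-0.5, and ORM1 from −0.0054 to 0.0447 in FUCO-1 and from −0.1032 to 0.0669 in FUCO-2 against Model and from −0.1233 to 0.0468 in FUCO-2 against FUCO-1.

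Deviations of same-numbered libraries correlated by r between −0.20 and 0.19 (median 0.02 over 45 pairs). Those of other-numbered libraries correlated by r between −0.28 and 0.29 (median −0.02 over 90 pairs). Of 18 libraries 10 correlated best with their own number, and whether the numbers pair the libraries was not tested. With the replicate block, LCN2 was 0.87 in FUCO-2 (adjusted p = 0.00501 by edgeR) and 1.21 in RES (adjusted p = 3.35e-05) against Model, and no count of members called changed. HP, CRP, SAA1, SAA2, HAMP and LBP are limited by their depth of at most 15 reads per library.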
